A study of Mus musculus with 4 samples.

Results

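Livers of ClockΔ19 mice collected at CT22 and at CT40, both in the subjective night of constant darkness, differed by at least 2-fold in both the 5′ and the 3′ part of the transcript for 403 of 8974 genes that could be judged this way. Of these, 149 were higher at CT22 (1.66% of the genes judged) and 254 were higher at CT40 (2.83%). Higher at CT22 were the clock repressors Per2 and Per3, the clock output genes Usp2 and Noct, the cytokine feedback genes Cish and Socs3, serum amyloid A genes, 5 heat shock genes, and Tfrc, Alas1 and Hamp2 of iron and heme metabolism. Each of the 5 heat shock genes lost its firm call under some alternative or shares reads with other loci, and Hspb1 was higher at CT40. Higher at CT40 were Npas2 and Nr1d1 of the clock, the immediate early gene Egr1, both measured metallothioneins, the FoxO-linked genes Depp1 and Irs2, and Acacb, Acly and Gpam of lipid synthesis. Lipid synthesis was split, since its regulators Thrsp and Angptl8 were firm and higher at CT22. Acly was not firm once a trend in GC content and length was removed. Noct was not firm with multi-mapped reads included, and Per3 and Alas1 were not firm under an alternative scaling. Each time is 1 library, so these are differences between 2 libraries and no test of the times can be made.

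The mice were C57/BL6 and carried Clock-delta-19, a mutant allele of Clock, with the transgenes Scg2:tTA and tetO::Clock-HA. All 4 libraries of the series, at CT22, CT28, CT34 and CT40, share this genotype and the same treatment, which was doxycycline in the drinking water at 30 ug/ml from 3 days before constant darkness. In such a system the tTA protein drives a tetO transgene, here an HA-tagged Clock, and doxycycline shuts it off. The Scg2 promoter is known for its activity in brain and endocrine cells, and whether any transgene remained active in liver was not tested. The mice came from cycles of 12 h light with 12 h dark, and each library holds liver polyA RNA pooled from 3 animals, whose age is not in the labels. CT22 and CT40 were collected 18 h apart and correspond to hours 22 and 16 of a 24-h cycle, 6 h apart in phase if the period is 24 h. Hour 16 lies earlier in the subjective night than hour 22. That period was assumed and was not tested, and the time since darkness began differs with the phase, so the effects of both cannot be told apart.

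In the liver clock, CLOCK and BMAL1 (Arntl) pair and activate genes through E-boxes. The PER and CRY proteins made from such genes hold the pair back, and the nuclear receptors REV-ERB (Nr1d1, Nr1d2) and ROR repress and activate Arntl, Npas2 and other genes. The ClockΔ19 allele loses an exon, and its protein still pairs with BMAL1 but activates poorly, while NPAS2 can take the place of CLOCK. Liver genes also follow feeding, hormones, body temperature and the immune state, so a rhythm in this tissue need not come from its own clock.

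The genes were chosen as follows. The deposited values per transcript were turned into uniquely mapped reads, each gene was represented by the transcript with the highest mean, and libraries were scaled by TMM, a method that sets the bulk of genes level between libraries. Values below are such scaled reads, and they compare one gene between libraries, not genes with each other. Of 24206 genes with a symbol, 9243 had a mean of at least 100 reads over the 4 libraries and were compared. A gene is called firm where CT22 and CT40 were at least 2-fold apart in the same direction in the whole transcript, in the exons on the 5′ side of its midpoint and in those on the 3′ side. For 269 genes 1 of these parts was missing or held under 10 reads, and these were not judged. The choice of genes used these values, so folds of firm genes describe them and are no test. Intervals of ratios are exact conditional 95% intervals that cover counting error only. Where a total that includes multi-mapped reads exceeds 1.2 times the unique reads, the level of the gene is called uncertain.

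Both parts were asked for because coverage along transcripts differed most between these 2 libraries. Over 4594 genes of at least 2000 bases and a mean of at least 300 reads, reads per base in the 5′ part over those in the 3′ part had a median log2 ratio of 0.28 at CT22 and 0.84 at CT40, with 0.52 and 0.75 at CT28 and CT34. The change from CT22 to CT40, 0.57, was the largest of the 6 pairs of libraries. Gene reads ranged from 17439767 at CT22 to 19995868 at CT40. For 100 gene reads the CT22 library held 25.3 intron reads and 17.5 of the mitochondrial genome, and the CT40 library 19.1 and 6.26. Clock itself read 1382 at CT22 and 1387 at CT40. All informative junction reads skipped its exon 19, the exon lost in the mutant allele, 28 of 28 at CT22 (exact Clopper-Pearson 95% interval 87.7 to 100%) and 48 of 48 at CT40 (92.6 to 100%). The exon itself nonetheless held 16 reads at CT22 and 26 at CT40, whose source was not tested. Hepatocyte markers were present in both libraries at summed levels of 3466500 at CT22 and 3275300 at CT40, and none of the 16 was 2-fold apart.

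By the whole transcript alone, 306 genes were at least 2-fold higher at CT22 (3.31% of 9243) and 448 at least 2-fold higher at CT40 (4.85%). The rule on both parts kept 48.7% of the former and 56.7% of the latter. Of the 157 genes lost on the CT22 side, 120 fell short in the 5′ part alone, and of the 194 lost on the CT40 side 153 fell short in the 3′ part alone. By the 5′ part alone, 252 genes would have been 2-fold higher at CT22 and 1577 at CT40. By the 3′ part alone the balance was the other way, with 620 and 314. The median log2 ratio of CT22 to CT40 over all genes was -0.34 in the 5′ part, 0.11 in the 3′ part and -0.05 in the whole transcript, so a gene had further to go to be firm on the CT22 side in its 5′ part and on the CT40 side in its 3′ part.

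**Figure D1:**
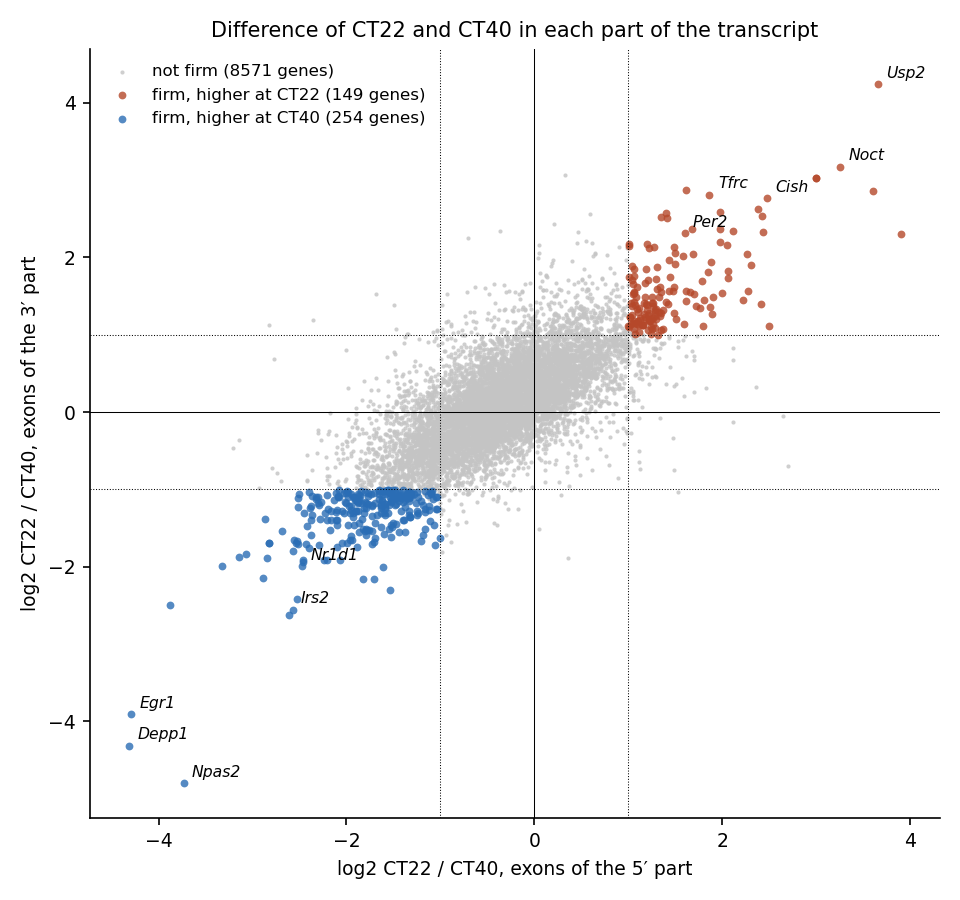
Log2 ratio of scaled reads, CT22 over CT40, in the exons of the 5′ part (horizontal axis) and of the 3′ part (vertical axis), 1 point for each of the 8974 genes judged. The 149 firm genes higher at CT22 (red) and the 254 higher at CT40 (blue) lie beyond the dotted lines at 2-fold on both axes, and the grey cloud is shifted to the left and upward.

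Just inside the limit were Ube2d2a, 1810037I17Rik and Dctpp1 on the CT22 side, whose smallest log2 ratios were 1.0009, 1.0012 and 1.0057. Just outside it were Uxs1, Lyar and 2010003K11Rik, at 0.99929, 0.99722 and 0.99581. On the CT40 side Teddm2, Jup and Rptor were inside at 1.0011, 1.0019 and 1.0025, and R3hdml, Efna1 and Vps51 outside at 0.99953, 0.99668 and 0.99587. Genes on either side of the limit are not told apart by counting error. The balance of the directions depends on the scaling. Of the firm genes, 37.0% were higher at CT22 with TMM, 52.1% with total gene reads, and 16.4% with the denominators that the authors' values imply. The last of these moves the median log2 ratio of all genes by -0.17, to -0.23, and a gene's direction below is relative to the bulk of genes as TMM sets it.

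Firm genes mostly ran in one direction through the libraries between. CT28 and CT34 both lay between CT22 and CT40 for 99 of the 149 genes higher at CT22 (66.4%) and for 203 of the 254 higher at CT40 (79.9%), against 33.9% of all genes tested. In order of collection, 80 of the first group were lower at every step (53.7%) and 174 of the second higher at every step (68.5%), against 10.1% and 13.8% of all genes. These shares are raised by the choice of genes with far-apart ends, and the 5′ to 3′ coverage and the mitochondrial share also moved in 1 direction from CT22 to CT40. Their part in these runs was not tested. Among firm genes, CT22 stood 2-fold above each other library for 35 and 2-fold below each for 61, whereas CT40 stood 2-fold above each for 12 and 2-fold below each for 17. Over all 9243 genes tested these counts were 60 and 73 for CT22 and 17 and 24 for CT40. The choice of firm genes raises their share among them. In phase terms the libraries run from hour 22 through 4 and 10 to 16. By the same rule, 147 genes were firm in either direction between CT22 and CT28 (1.64% of those judged), 58 between CT28 and CT34 (0.647%) and 99 between CT34 and CT40 (1.1%), each also 6 h apart in phase. The CT22 to CT40 pair, with 4.49% firm, is 6 h apart in phase but 18 h apart in collection. Of the pairs 12 h apart, CT22 and CT34 had 360 firm genes (4.01%) and CT28 and CT40 had 128 (1.43%). The median 5′ to 3′ log2 ratio differed by 0.57 between CT22 and CT40 and by 0.47 between CT22 and CT34. It differed by 0.33 between CT28 and CT40, 0.24 between CT22 and CT28, 0.23 between CT28 and CT34 and 0.10 between CT34 and CT40. The cause of the differences in firm counts was not tested.

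**Figure D2:**
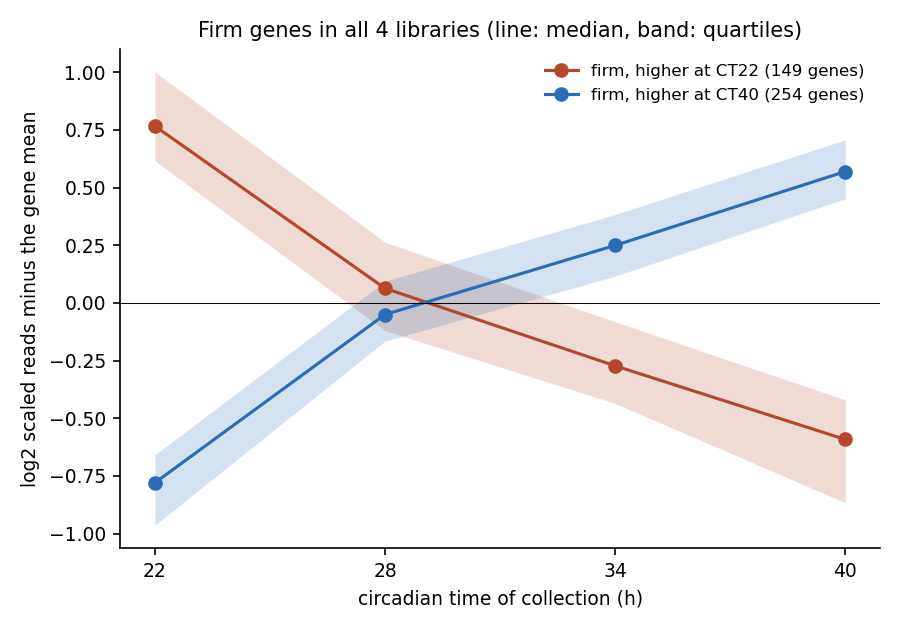
Log2 scaled reads minus the gene's own mean over the 4 libraries (vertical axis) against circadian time of collection in hours (horizontal axis), as the median (line) and quartiles (band) over firm genes. The median of genes higher at CT22 goes from 0.77 at CT22 to -0.59 at CT40, and that of genes higher at CT40 from -0.78 to 0.57, with CT28 and CT34 between.

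The core clock list had 19 measured members, of which 2 were firm and higher at CT22, 2 were firm and higher at CT40, and 10 in all were higher at CT22. Each firm count is 10.5% of those judged, against 1.66% of all genes at CT22 and 2.83% at CT40. Over all 9243 genes tested, 4297 were higher at CT22 and 4946 at CT40. The counts of all lists below stand beside these shares. The list's median log2 ratio was 0.14, against -0.05 over all genes tested, and it was -0.04 with the implied denominators. Among the repressors, Per2 (NM_011066, mm9 chromosome 1, 93312559 to 93355905) read 1109 at CT22, 1338 and 763 at CT28 and CT34, and 326 at CT40. CT40 was the lowest of the libraries, and CT22 exceeded it 3.40-fold (95% counting interval 3.01 to 3.86). Per3 read 312 at CT22, 272 and 55.3 at CT28 and CT34, and 114 at CT40, lowest at CT34 and 2.74-fold (95% counting interval 2.21 to 3.41) higher at CT22 than at CT40. Its 5′ part lay close to the limit, with a log2 ratio of 1.01, and it was no longer firm with the implied denominators or with reads of exons that span the midpoint shared out. Per1 was 1.85-fold (1.62 to 2.11) and Cry1 1.65-fold (1.37 to 1.98) higher at CT22, neither by 2-fold. Cry2 went the other way, 2.06-fold (1.79 to 2.37) higher at CT40, and was not firm, since its log2 ratio was -1.41 in the 5′ part and -0.78 in the 3′ part.

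On the activator side, Npas2 (NM_008719, mm9 chromosome 1, 39251117 to 39420085), the paralogue of Clock, read 15.6 at CT22, 254 and 658 at CT28 and CT34, and 196 at CT40. CT22 was far below every other library, and CT40 exceeded it 12.6-fold (95% counting interval 7.45 to 22.9). Arntl, the partner of CLOCK, read 415 at CT22, 825 and 1004 at CT28 and CT34, and 797 at CT40 and was 1.92-fold higher at CT40. Clock read 1382 at CT22, 1315 and 1443 at CT28 and CT34, and 1387 at CT40 and was level.

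Nr1d1 (OTTMUST00000014594, mm9 chromosome 11, 98629246 to 98636647), which encodes REV-ERBα, read 443 at CT22, 408 and 429 at CT28 and CT34, and 1907 at CT40. Only CT40 stood apart, 4.31-fold (95% counting interval 3.88 to 4.79) above CT22, while CT22, CT28 and CT34 lay within 10% of each other. Its relative Nr1d2 read 351, 201, 102 and 415 in the same order and was 1.18-fold higher at CT40, a difference that was reversed in its 3′ part (log2 ratio -1.07 in the 5′ part and 0.28 in the 3′ part). Rora, which encodes an activating receptor, was 1.11-fold higher at CT22 in the whole transcript, and its direction also turned between the parts, with -0.85 in the 5′ part and 0.49 in the 3′ part. Of the output repressors, Nfil3 was 1.44-fold higher at CT40 and Bhlhe40 1.60-fold higher at CT22. Tef (1.45-fold) and Hlf (1.15-fold), activators that bind the D-box, were higher at CT22 in the whole transcript but slightly lower there in the 5′ part, with log2 ratios of -0.10 in the 5′ part and 0.78 in the 3′ part for Tef and -0.12 in the 5′ part and 0.38 in the 3′ part for Hlf. Csnk1e, a kinase that acts on PER, was 1.23-fold higher at CT22, while the related kinase Csnk1d was 1.56-fold higher at CT40.

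**Figure D3:**
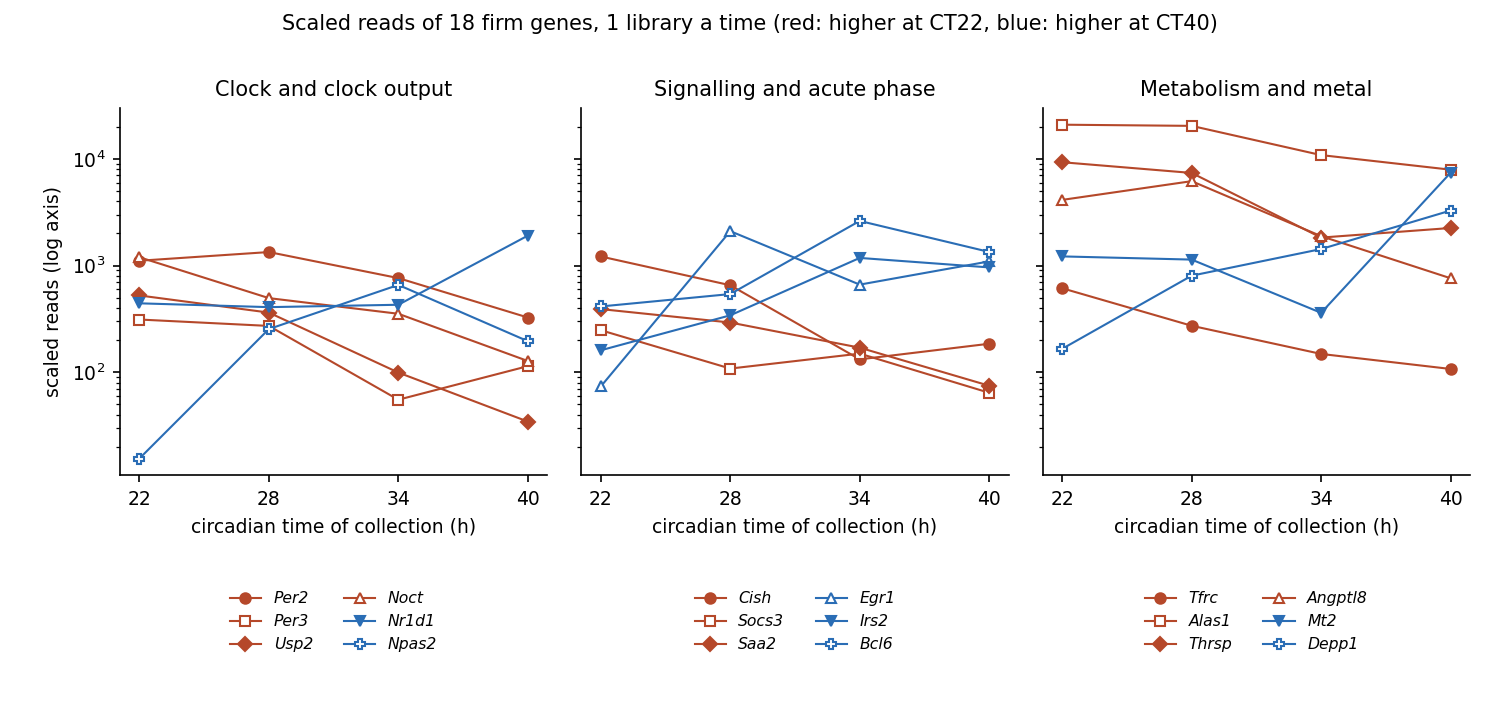
Scaled reads on a log axis (vertical) against circadian time of collection in hours (horizontal) for 18 firm genes, 1 library a time with no replicate; red genes were higher at CT22 and blue genes higher at CT40. Usp2 and Tfrc are lower at each step, Depp1 is higher at each step, and Nr1d1 and Mt2 are highest at CT40.

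Genes known as clock outputs had 3 firm members higher at CT22 and 1 higher at CT40 among 12 measured, with a median log2 ratio of 0.46. The firm members are 25% and 8.33% of those judged, against 1.66% and 2.83% of all genes. Usp2 (NM_198091, mm9 chromosome 9, 43893003 to 43903710), a deubiquitinase under direct clock control, read 525 at CT22, 362 and 99.3 at CT28 and CT34, and 34.5 at CT40. It was 15.2-fold (95% counting interval 10.8 to 22) higher at CT22, the largest fold of all firm genes in that direction. Noct, a rhythmic gene for an RNA- and cofactor-processing enzyme, read 1196 at CT22, 495 and 353 at CT28 and CT34, and 127 at CT40 and was 9.38-fold higher at CT22, but its total with multi-mapped reads is 16.5 times the unique, so its level is uncertain, and with those reads included it was not firm.

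Alas1, the first enzyme of heme synthesis, read 20893 at CT22, 20368 and 10842 at CT28 and CT34, and 7912 at CT40. CT22 and CT28 were alike, and CT22 was 2.64-fold (95% counting interval 2.57 to 2.71) above CT40. With the implied denominators Alas1 was not firm. Elovl3, a fatty acid elongase with strong rhythm in liver, was higher at CT40, at 1462 at CT22 and 3104 at CT40, 2.12-fold (1.99 to 2.26), and was not firm with total gene reads or with each part centred. Tspan4, chosen after its values were seen, was 2.00-fold higher at CT22 but fell short in its 5′ part.

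Genes of growth hormone and STAT5 signalling had 3 firm members higher at CT22 and 1 higher at CT40 among 13. These are 23.1% and 7.69% of those judged, against 1.66% and 2.83% of all genes. Growth hormone acts on liver through STAT5, which induces Cish and Socs genes as its own brakes, and BCL6 represses STAT5 targets. Cish (NM_009895, mm9 chromosome 9, 107199020 to 107204292) read 1216 at CT22, 654 and 132 at CT28 and CT34, and 185 at CT40, so CT22 was highest and 6.57-fold (95% counting interval 5.64 to 7.69) above CT40. Socs3, which also follows interleukin signals, read 248 at CT22, 108 and 149.5 at CT28 and CT34, and 64.2 at CT40 and was 3.86-fold (2.93 to 5.14) higher at CT22. Onecut1, a hepatocyte transcription factor, was 2.39-fold (2.20 to 2.59) higher at CT22 but not firm once a trend in GC content and length was removed. Bcl6 read 414 at CT22, 541 and 2619 at CT28 and CT34, and 1341 at CT40 and was 3.24-fold (95% counting interval 2.90 to 3.63) higher at CT40. Cish and Socs3 thus lay on the side opposite to Bcl6. Socs2, also in the list, was not among its firm or 2-fold genes, and what links these differences was not tested. Stat5b (2.17-fold) and Cux2 (2.73-fold), both chosen after their values were seen, were higher at CT40 and short of 2-fold in the 3′ part. The list's median was -0.05, as over all genes, and 0.04 with total gene reads.

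Immediate early and growth genes had 4 firm members higher at CT22 and 1 higher at CT40 among 16 measured, of which 12 could be judged. The firm members are 33.3% and 8.33% of those judged, against 1.66% and 2.83% of all genes. Gadd45g, a stress-induced growth arrest gene, read 923 at CT22, 108 and 141 at CT28 and CT34, and 211 at CT40, and CT22 was 4.37-fold (95% counting interval 3.77 to 5.09) above CT40. Cdkn1a, the cell cycle inhibitor p21, read 614 at CT22, 325 and 537 at CT28 and CT34, and 156 at CT40 and was 3.93-fold higher at CT22. Dusp1, a phosphatase that ends MAP kinase signals, read 1549.8 at CT22, 1470 and 867 at CT28 and CT34, and 525 at CT40 and was 2.95-fold higher. Myc, a growth regulator, read 708 at CT22, 143 and 108 at CT28 and CT34, and 256 at CT40 and was 2.77-fold higher at CT22.

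Egr1, a transcription factor induced within minutes by growth and stress signals, went the other way. It read 73.6 at CT22, 2100.1 and 663 at CT28 and CT34, and 1094 at CT40. CT22 alone was low, CT28 was highest, and CT40 exceeded CT22 14.9-fold (95% counting interval 11.7 to 19.2). Jun (2.01-fold, not judged) and Ccnd1 (2.10-fold, short in the 5′ part), both chosen after their values were seen, were higher at CT22.

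Acute phase genes had 4 firm members higher at CT22 and none higher at CT40 among 23 measured, of which 22 could be judged. The 4 are 18.2% of those judged, against 1.66% of all genes. The list's median log2 ratio was 0.19, and it was -0.18 when the GC and length trend was removed. Serum amyloid A proteins are made by hepatocytes in response to interleukins. Saa2 read 391 at CT22, 292 and 170 at CT28 and CT34, and 74.8 at CT40 and was 5.23-fold (95% counting interval 4.09 to 6.76) higher at CT22. Saa1 read 643 at CT22, 342 and 369.7 at CT28 and CT34, and 157 at CT40 and was 4.09-fold higher. Saa4, the constitutive member, read 20933 at CT22, 13992 and 9868 at CT28 and CT34, and 7697 at CT40 and was 2.72-fold higher. All of them were lowest at CT40. Il1r1, the interleukin-1 receptor, read 1704 at CT22, 639 and 589 at CT28 and CT34, and 675 at CT40, so CT22 alone was high, 2.53-fold above CT40.

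Not all of the list lay this way. Cebpb, a transcription factor of the acute phase chosen here after its values were seen, read 137 at CT22, 680.3 and 1178 at CT28 and CT34, and 1207 at CT40. It was 8.82-fold (95% counting interval 7.37 to 10.6) higher at CT40, but its single exon left only 1 part, so it was not judged. Of the 29 complement and coagulation genes measured, none was firm. C3, the central complement protein, was 2.50-fold and C4b 2.09-fold higher at CT40, with log2 ratios of -2.18 in the 5′ part and -0.83 in the 3′ part for C3. The total of C4b is 1.38 times its unique reads.

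Heat shock genes, which encode chaperones and follow body temperature and feeding in liver, had 5 firm members higher at CT22 and 1 higher at CT40 among 21 measured, of which 20 could be judged. Their median log2 ratio was 0.42, and 15 were higher at CT22. The firm members are 25% and 5% of those judged, against 1.66% and 2.83% of all genes. Dnaja1 read 1039 at CT22, 505 and 341 at CT28 and CT34, and 253 at CT40 and was 4.10-fold higher at CT22, though its total is 4.16 times the unique reads. Cacybp, a co-chaperone partner, was 3.46-fold (3.00 to 4.00) and Chordc1, an HSP90 co-chaperone, 2.75-fold (2.31 to 3.27) higher at CT22, and neither was firm with the GC and length trend removed.

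Hsp90aa1 (2.36-fold, total 1.94 times unique) and Dnajb1 (2.29-fold), the inducible HSP90 and a co-chaperone, were the other firm members and were chosen after their values were seen. Hspa8, also chosen after its values were seen, read 30453 at CT22, 25298 and 18532 at CT28 and CT34, and 9469 at CT40, a 3.22-fold difference that was 1.80 in log2 in the 3′ part and 0.85 in the 5′ part, so it was not firm. Hspb1, a small heat shock protein, was the exception. It read 23.8 at CT22, 177 and 233 at CT28 and CT34, and 93.9 at CT40, 3.94-fold (95% counting interval 2.48 to 6.50) higher at CT40 from few reads at CT22, and its total is 1.76 times the unique reads.

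The cold-inducible RNA-binding proteins lay on opposite sides. Rbm3 was 2.93-fold (2.39 to 3.62) higher at CT22, with a total of 1.63 times its unique reads and no firm call after the trend was removed, while Cirbp was 2.17-fold (1.75 to 2.71) higher at CT40. Cirbp read 124 at CT22, 112 and 133 at CT28 and CT34, and 270.3 at CT40, so only CT40 stood apart, and it was not firm with each part centred. Of 19 genes of the endoplasmic reticulum stress response, only Manf, a secreted stress-induced factor, was firm, 2.35-fold (2.18 to 2.54) higher at CT22. With the implied denominators it was not.

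Iron and heme genes had 3 firm members, all higher at CT22, among 22 measured, of which 21 could be judged (14.3%, against 1.66% of all genes). Tfrc (NM_011638, mm9 chromosome 16, 32608982 to 32632879), the transferrin receptor, whose RNA is stabilised when iron is low, read 613 at CT22, 273 and 148 at CT28 and CT34, and 107 at CT40. It was lower at each step, and 5.71-fold (95% counting interval 4.66 to 7.05) higher at CT22. Hamp2, a gene of the hepcidin family, whose founding member controls iron export, read 15802 at CT22, 11879 and 2614 at CT28 and CT34, and 4145 at CT40 and was 3.81-fold (3.69 to 3.94) higher. Alas1 was the other firm member. The median log2 ratio of the list was 0.17, and it was 0.00 with the implied denominators, so the direction of the list as a whole depends on the scaling.

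Metallothioneins bind zinc and copper and respond to metals, glucocorticoids and fasting. Mt2 (NM_008630, mm9 chromosome 8, 96696518 to 96697467) read 1218 at CT22, 1137 and 360.5 at CT28 and CT34, and 7409 at CT40, so CT40 was far above all other libraries and CT34 was lowest. CT40 exceeded CT22 6.08-fold (95% counting interval 5.72 to 6.47). Mt1 read 14765 at CT22, 7182 and 7285 at CT28 and CT34, and 37009 at CT40 and was 2.51-fold (95% counting interval 2.46 to 2.56) higher at CT40, where it also stood above all others. These are the 2 firm members higher at CT40 of the 18 measured glucocorticoid-induced genes. Cdkn1a and Dusp1 are the 2 firm members higher at CT22, and the list's median was 0.44. Each count is 11.1% of those judged, against 1.66% of all genes at CT22 and 2.83% at CT40. Tsc22d3, a glucocorticoid-induced regulator named after its values were seen, was 2.23-fold higher at CT22 and short in the 5′ part.

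Genes of fatty acid and triglyceride synthesis leaned to CT40, with a median log2 ratio of -0.53 over 20 measured members and 14 of them higher at CT40. The medians of the 5′ and 3′ parts were -1.01 and -0.32. The firm members were 3 higher at CT40 and 2 higher at CT22 (15% and 10% of those judged, against 2.83% and 1.66% of all genes). Acacb, which makes the malonyl-CoA that limits fatty acid oxidation, read 904 at CT22, 2998 and 2618 at CT28 and CT34, and 3651 at CT40 and was 4.04-fold (95% counting interval 3.75 to 4.35) higher at CT40. Gpam, the first enzyme of glycerolipid synthesis, read 1182 at CT22, 2064 and 2167 at CT28 and CT34, and 3564 at CT40 and was 3.02-fold higher. Acly, which supplies acetyl-CoA and was chosen after its values were seen, read 3528 at CT22, 6820.2 and 5185 at CT28 and CT34, and 8857 at CT40 and was 2.51-fold higher. Fasn, fatty acid synthase, chosen after its values were seen, was 2.23-fold higher at CT40 but short in the 3′ part.

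The members higher at CT22 are regulators known to follow feeding. Thrsp, a lipogenic regulator, read 9294 at CT22, 7377 and 1828 at CT28 and CT34, and 2249 at CT40, so CT22 and CT28 were high and CT22 was 4.13-fold (95% counting interval 3.95 to 4.33) above CT40. Angptl8, an insulin-induced regulator of lipoprotein lipase, read 4124 at CT22, 6177 and 1885 at CT28 and CT34, and 760.2 at CT40, highest at CT28 and lowest at CT40, and was 5.42-fold (95% counting interval 5.03 to 5.86) higher at CT22.

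Cholesterol synthesis genes, which answer together to SREBP2, were higher at CT40 in 21 of 23 measured members (4946 of 9243 over all genes), with a median log2 ratio of -0.66. The medians of the 5′ and 3′ parts were -0.95 and -0.63, so the lean was present in both. Across the scalings the median ran from -0.83 to -0.57, and with the GC and length trend removed it was -0.66. Differences of single genes were small. Mvk, mevalonate kinase, read 858 at CT22, 872 and 967 at CT28 and CT34, and 1843 at CT40 and was 2.15-fold (1.98 to 2.33) higher at CT40, and Srebf2, the regulator itself, read 1456 at CT22, 2179 and 3107 at CT28 and CT34, and 3418 at CT40 and was 2.35-fold (2.21 to 2.50) higher. These were the firm members (8.70% of those judged, against 2.83% of all genes), and neither was firm with the trend removed. Mvd (2.07-fold) and Dhcr7 (2.15-fold), enzymes of the pathway chosen after their values were seen, were higher at CT40 and each fell short in the 3′ part. Hmgcs1 was not analysed here.

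Bile acid genes also leaned to CT40, with a median of -0.46 over 16 measured members, 11 of them higher at CT40 and none firm. Nr0b2, the repressor SHP, read 289 at CT22, 1075 and 1122 at CT28 and CT34, and 672 at CT40 and was 2.32-fold higher at CT40, and Cyp8b1, which sets the bile acid type, read 5143 at CT22, 3385 and 5998 at CT28 and CT34, and 10758 at CT40 and was 2.09-fold higher in its single exon. Genes of the fasting response under PPARα had no firm member among 25 and a median of -0.09. Acot1, a thioesterase, read 149, 562, 1087 and 333 in time order, 2.23-fold higher at CT40 with a total of 1.69 times its unique reads, and Pdk4, a brake on glucose oxidation, read 95.4, 158, 237 and 227, 2.38-fold higher.

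Among genes of insulin and FoxO signalling, 2 of 18 measured were firm and higher at CT40 (11.1%, against 2.83% of all genes) and none was firm at CT22. Irs2, the insulin receptor adaptor that FoxO induces in fasting, read 161 at CT22, 342 and 1179 at CT28 and CT34, and 960.5 at CT40. CT34 and CT40 were high, and CT40 exceeded CT22 5.98-fold (95% counting interval 5.04 to 7.13). Sesn3, a FoxO target that restrains mTORC1, read 65.3 at CT22, 98.5 and 184 at CT28 and CT34, and 203 at CT40 and was 3.11-fold (2.34 to 4.19) higher at CT40. Foxo3 (2.05-fold), Igfbp1 (2.70-fold) and Sesn1 (2.16-fold), chosen after their values were seen, were also higher at CT40, each short in the 3′ part. The median of the list was -0.07, close to that of all genes, and it was 0.02 with total gene reads and 0.07 with the GC and length trend removed.

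Depp1 (NM_145980, mm9 chromosome 6, 116600702 to 116602865), a gene that FoxO factors induce in fasting, is not in that list and headed all genes higher at CT40. It read 166 at CT22, 803 and 1428 at CT28 and CT34, and 3276 at CT40, higher at each step, and CT40 exceeded CT22 19.8-fold (95% counting interval 16.9 to 23.3). Its log2 ratio was -4.32 in the 5′ part and -4.31 in the 3′ part, nearly the same in both. Pfkfb3, which makes the activator of glycolysis, was the firm member of 23 genes of glucose metabolism. It read 434 at CT22, 159 and 141 at CT28 and CT34, and 129 at CT40, so CT22 alone was high, 3.36-fold (2.76 to 4.11) above CT40.

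Sex-biased liver genes, which follow the pattern of growth hormone release, were mixed. Among 16 female-biased genes, Sult2a1, a sulfotransferase, was firm and higher at CT22, and A1bg was firm and higher at CT40. Sult2a1 read 81.9 at CT22, 1098 and 753 at CT28 and CT34, and 24 at CT40. CT28 and CT34 were above CT22 and CT40, and CT22 exceeded CT40 3.42-fold (95% counting interval 2.16 to 5.59). Sult2a2, of the same family but in no list, had the same shape, with 547, 1554, 1034 and 104 in time order. A1bg read 405, 673, 1123 and 1249 and was higher at each step.

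Of 18 male-biased genes, Serpina4-ps1, a serpin pseudogene, read 4491 at CT22, 1445 and 274 at CT28 and CT34, and 1549 at CT40 and was 2.90-fold higher at CT22. Ugt2b38 was 2.18-fold higher at CT22, but its total is 10.5 times its unique reads and it was not firm with those included. Elovl3 was the firm member at CT40. The labels give no sex, and the share of either sex in the pools was not tested.

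Of 26 measured genes of cytochrome P450 families 1 to 3 and their regulators, Cyp2u1 was the firm member (3.85%, against 2.83% of all genes on the CT40 side), reading 157 at CT22 and 485 at CT40, 3.10-fold (2.58 to 3.74) higher at CT40. P450 genes of other families, such as Cyp26a1, Cyp26b1, Cyp4b1 and Cyp21a1, chosen after their values were seen, are firm but not in that list. Of 25 conjugation genes judged, 2 were firm at CT22 (8%, against 1.66% of all genes). Sult1d1, a sulfotransferase, was 2.64-fold (2.42 to 2.89) and Tpmt, a methyltransferase, 2.26-fold (2.04 to 2.51) higher at CT22, and neither was firm with the GC and length trend removed. Of the 20 receptors in the nuclear receptor list, which leaves out those of the clock and Thra (firm at CT40, chosen after its values were seen), Ppard, the ubiquitous PPAR, was firm. It read 263 at CT22, 926 and 1534 at CT28 and CT34, and 656 at CT40 and was 2.49-fold higher at CT40, and it was not firm with that trend removed. Of 25 urea cycle and amino acid genes none was firm, and Hal, which degrades histidine, was 2.10-fold and Cbs 2.09-fold higher at CT40.

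**Figure D4:**
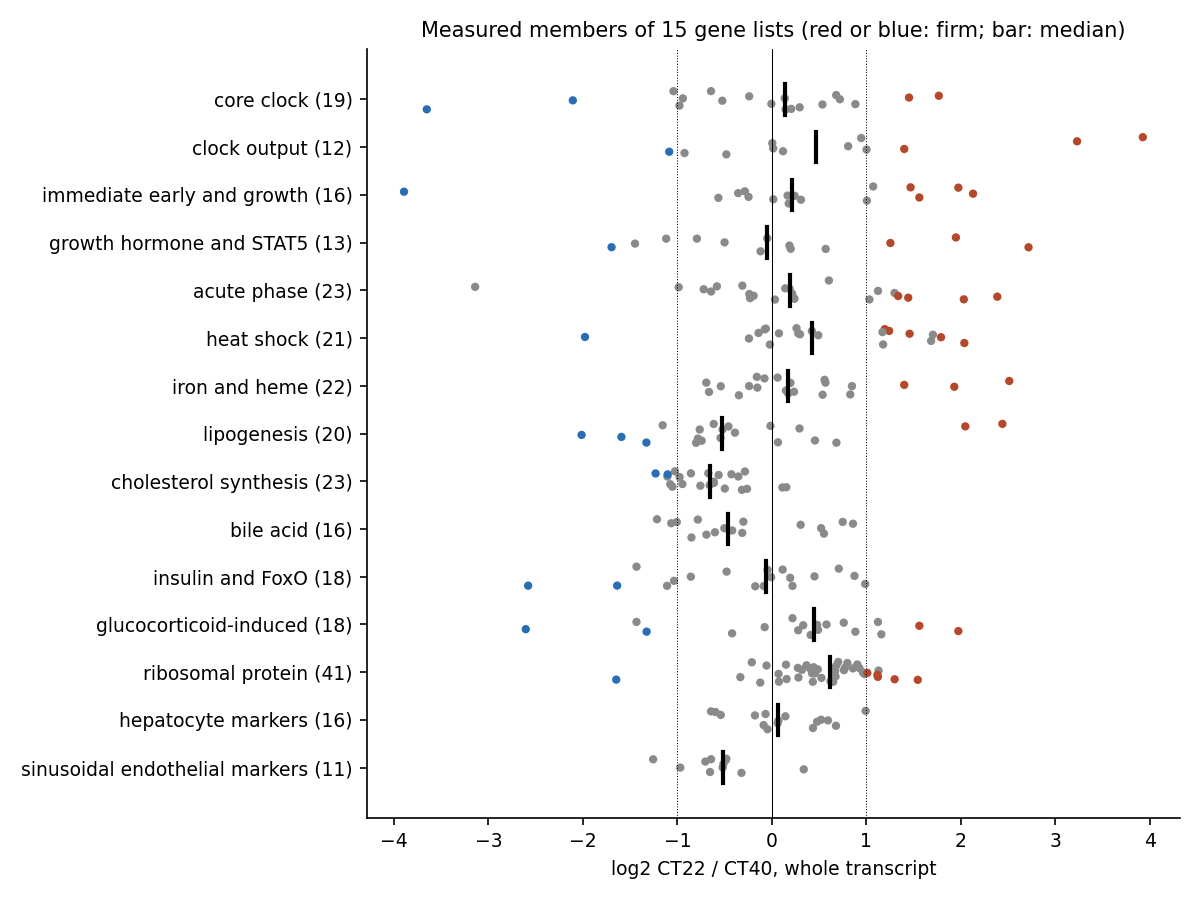
Log2 ratio of scaled reads, CT22 over CT40, in the whole transcript (horizontal axis) for the measured members of 15 lists (rows, with the number measured); each point is a gene, red or blue where firm, and the bar is the list's median. The median is -0.66 for cholesterol synthesis, -0.53 for lipogenesis, 0.42 for heat shock and 0.62 for ribosomal proteins, and firm genes lie on both sides in most lists.

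Of 41 measured genes in the ribosomal protein list 36 were higher at CT22 (4297 of 9243 over all genes), with a median log2 ratio of 0.62. At CT22 5 were firm and at CT40 1 (12.2% and 2.44% of those judged, against 1.66% and 2.83% of all genes). Rpl17, Rpl35a, Rpl39 and Rps7, firm at CT22 and chosen after their values were seen, are outside the list. Their transcripts were short, with a median of 964 bases against 3043 over all genes, and removing the GC and length trend brought the median to 0.24. Rpl24 read 1372 at CT22, 732 and 605 at CT28 and CT34, and 471 at CT40 and was 2.92-fold higher at CT22, with a total of 2.61 times its unique reads, and it was not firm with those included. The totals of Rpl10a and Rpl35 are 16.9 and 9.84 times their unique reads, and they are uncertain likewise. Rpl22 (2.17-fold) and Rps25 (2.01-fold), chosen after their values were seen, have fewer shared reads, with totals of 1.10 and 1.17 times the unique. Rpl38 was the exception, reading 669.7 at CT22, 1447 and 1292 at CT28 and CT34, and 2098 at CT40 and 3.13-fold (2.87 to 3.43) higher at CT40. Splicing regulators (median 0.42 over 26), proteasome genes (0.22 over 27) and nuclear genes of oxidative phosphorylation (0.15 over 30) leaned to CT22 with no firm member among those listed, and with the trend removed the last 2 medians were -0.20 and -0.06. With the implied denominators that of oxidative phosphorylation was -0.02. Of oxidative phosphorylation genes outside the list, Uqcrb, Ndufb4, Ndufc1, Ndufc2 and Atp5md, chosen after their values were seen, were firm at CT22.

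Firm genes of the 2 directions differed in build. Those higher at CT22 had a median transcript length of 1923 bases and a GC content of 47.1%, and those higher at CT40 had 4340 bases and 53.8%, against 3043 bases and 50.5% over all genes tested. A cubic trend in GC content and length held 27.4% of the variance of the log2 ratio. With it removed, 65 of the 149 and 111 of the 254 stayed firm. Its part in the differences of single genes was not tested. Shared reads also differed by direction, with totals above 1.2 times unique in 38 of the 149 and 6 of the 254, against 595 of all 9243 genes tested. Another gene overlaps over 20% of the exon bases of 13 of the 149 and 12 of the 254, among them Ptp4a1 and Rpl35, against 686 of the 9243. The reads of overlapping genes cannot be told apart by strand.

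Several of the largest differences lay in genes outside the lists. Rcan1, an inhibitor of calcineurin, read 1319.6 at CT22, 571 and 357 at CT28 and CT34, and 269 at CT40 and was 4.90-fold (4.30 to 5.59) higher at CT22. Coq10b, a coenzyme Q binding protein, read 324 at CT22, 155 and 119.8 at CT28 and CT34, and 71.9 at CT40 and was 4.51-fold higher. Both were lower at each step of collection. Cycs, cytochrome c, was 7.18-fold and Ptp4a1, a phosphatase, 5.08-fold higher at CT22 by unique reads, but their totals are 16.4 and 5.46 times those, and their levels are uncertain.

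On the CT40 side, Ntrk2, a neurotrophin receptor, read 57.0 at CT22, 723 and 119.8 at CT28 and CT34, and 403 at CT40 and was 7.06-fold (5.32 to 9.53) above CT22, with CT28 highest. Rnf125, a ubiquitin ligase, read 356 at CT22, 886 and 1347 at CT28 and CT34, and 2149 at CT40, and Erbb3, a receptor partner of the EGF receptor family, 939 at CT22, 1836 and 3157 at CT28 and CT34, and 4661 at CT40. Both were higher at each step, 6.04-fold and 4.96-fold from CT22 to CT40. The differences of Ndrg1 (4.76-fold), Efna3 (4.54-fold), Acpp (4.21-fold), Tcp11l2 (4.15-fold) and Myh14 (4.13-fold) ranged from 4.13-fold to 4.76-fold. Dmbt1, a secreted scavenger protein, read 141, 1131, 77.8 and 723 in time order, high at CT28 and CT40 only, and its total is 1.29 times the unique reads.

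Markers of other cell types moved with some of these results. Hemoglobin genes, which mark red cells in blood held by the tissue, were among the leading genes higher at CT22. Hbb-bs read 23187 at CT22, 11666 and 21212 at CT28 and CT34, and 4686 at CT40, 4.95-fold higher at CT22 than at CT40, and Hba-a1 read 4113 at CT22, 2968 and 6573 at CT28 and CT34, and 1345 at CT40. CT40 was the lowest library for both. Of the 4 erythroid markers measured, 3 were firm and all were higher at CT22, and the summed level of the list was 6950 at CT22 and 2802 at CT40, with 4848 and 9325 at CT28 and CT34. CT40 was thus low, and CT34, not CT22, was highest. Totals are 1.73 times unique for Hbb-bs, 17.3 times for Hba-a1 and 27.5 times for Hbb-b2 and Hbb-bt, so the levels of these genes are uncertain. Hbb-b2 and Hbb-bt rest on the same reads. In bulk tissue fewer cells of a type and less RNA per cell cannot be told apart.

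Endothelial markers were higher at CT40 in 10 of 11 (4946 of 9243 over all genes), with a median log2 ratio of -0.52 and none firm. Their summed level was 5504 at CT22 and 7713 at CT40, and the medians of the 5′ and 3′ parts were -1.32 and -0.55. Kupffer cell markers summed to 6400 at CT22 and 5803 at CT40, with none firm. Of 12 stellate cell markers only Reln was firm, 2.08-fold higher at CT40, and the list summed to 7781 and 8597. Adipose markers summed to 153 and 43.1, of which Cidec gave 139.95 and 41.2, with Lep and Plin1 at 0 in both libraries, and pancreas markers to 279 and 370, with Prss2, Cpa1, Amy2a5 and Try4 at 0. Cholangiocyte markers summed to 1179 and 1795, and lymphocyte and neutrophil markers to 296 and 233, and none of either was firm. The part of any of these cells in the results above was not tested.

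Reads that the rule did not use were set beside the firm calls. Introns come from unspliced RNA of the same libraries. Among firm genes higher at CT22 with at least 20 intron reads, 132 of 136 had more scaled intron reads at CT22 (97.1%) and 97 were 2-fold apart (71.3%), against 78.5% and 22% of all 8790 genes with such reads. Among firm genes higher at CT40, 164 of 248 had more at CT40 (66.1%) and 49 were 2-fold apart (19.8%), against 21.5% and 1.70% of all. The all-gene median of the intron log2 ratio was 0.50 toward CT22, and 229 of the 248 lay on the CT40 side of it. Against the bulk of genes, introns were thus shifted the same way as exons in most genes of both groups. Shares were near these in 2-fold genes that were not firm: 134 of 140 had more intron reads at CT22 on that side, and 157 of 178 lay on the CT40 side of the median on the other.

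Single genes differed in this respect. Scaled intron reads of Alas1 were 6786 at CT22 and 629 at CT40, those of Cish 555 at CT22 and 50.8 at CT40 and those of Thrsp 1736 at CT22 and 266 at CT40, each further apart than the exons. For Mt2 they read 22.8 at CT22 and 127 at CT40, and for Nr1d1 152 at CT22 and 349.9 at CT40. Per2 introns were nearly level, at 656 at CT22 and 559 at CT40, where its exons differed 3.40-fold, and Bcl6 introns read 1039.8 at CT22 and 1129 at CT40 beside exons 3.24-fold apart. These values are not set against the all-gene intron median of 0.50 toward CT22. Beside that median the introns of both genes lay on the CT40 side, as the exons of Bcl6 did and those of Per2 did not. Junction reads, which are a subset of the exon reads and no separate evidence, went the same way in 137 of 137 firm genes higher at CT22 and 239 of 239 higher at CT40 with at least 20 such reads. Over all 8575 genes with such reads, 31.6% had more at CT22 and 68.4% more at CT40. The all-gene median of the junction log2 ratio was -0.33, toward CT40.

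**Figure D5:**
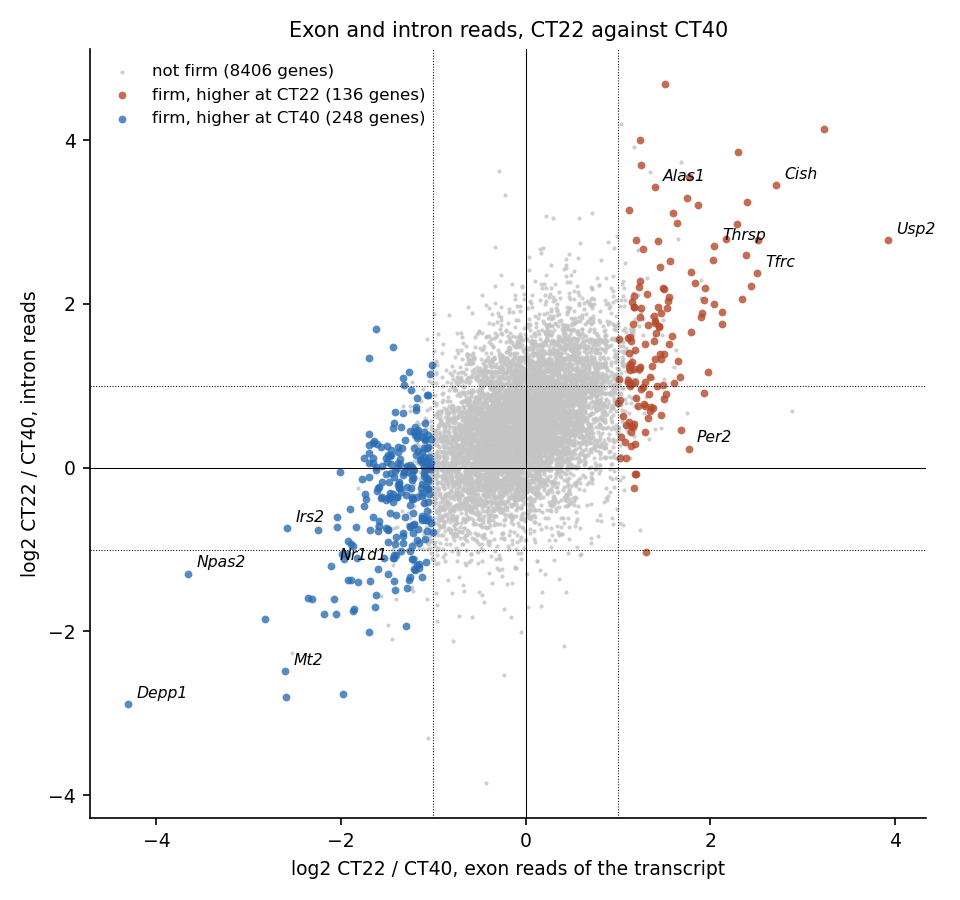
Log2 ratio of CT22 over CT40 in exon reads of the transcript (horizontal axis) and in intron reads (vertical axis) for genes with at least 20 intron reads; red and blue mark the 136 and 248 firm genes. The grey cloud sits above 0, at a median of 0.50, red genes lie mostly above it and blue genes mostly below it.

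Promoters were read for motifs that bear on the groups above. Sequences came from RefSeq (GRCm38.p6), from 250 bases before to 50 after each start, and were matched by symbol for 114 of the 149 firm genes higher at CT22 and 194 of the 254 higher at CT40. The E-box CACGTG, searched on both strands as were all motifs, was found in 11.4% and 12.9% of these, against 12.4% of the 7348 tested genes with a promoter and 7.15% of all 32851 promoters. The nuclear receptor site AGGTCA was found in 19.3% and 14.4% (15.3% of tested genes, 16.3% of all promoters). The metal response element TGCGCNC was in 32.5% and 33.0% (30.7% and 15.4%), and the D-box TTACGTAA in none (0.231% and 0.119%). The heat shock element, searched as GAA, TTC and GAA with 2 free bases between neighbours, was in 2 of 114 genes higher at CT22, Chordc1 and Rpl22, and in none of 194 higher at CT40, against 0.612% of tested genes and 0.603% of all promoters. Apart from this motif, which rests on 2 genes, the shares of the firm genes were close to those of all tested genes.

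Below are the windows of 5 firm genes, shown as examples of firm genes with a match: a heat shock gene with heat shock elements, both metallothioneins with metal response elements, and a gene of each direction, neither in the core clock list, with an E-box. Capitals mark those motifs on either strand. Chordc1 holds 3 overlapping heat shock elements at its start (GRCm38.p6 chr9:18292017-18292316, plus strand). Mt2 (chr8:94172368-94172667, plus strand) holds 2 metal response elements, and its neighbour Mt1 (chr8:94178839-94179138, plus strand) holds 1. Irs2 (chr8:11008880-11009179, minus strand) and Gadd45g (chr13:51846425-51846724, plus strand), on opposite sides of the comparison, hold 1 E-box each. No E-box letters were in the windows of Usp2, Noct, Per3, Npas2 or Nr1d1. A match describes these letters only.
Chordc1: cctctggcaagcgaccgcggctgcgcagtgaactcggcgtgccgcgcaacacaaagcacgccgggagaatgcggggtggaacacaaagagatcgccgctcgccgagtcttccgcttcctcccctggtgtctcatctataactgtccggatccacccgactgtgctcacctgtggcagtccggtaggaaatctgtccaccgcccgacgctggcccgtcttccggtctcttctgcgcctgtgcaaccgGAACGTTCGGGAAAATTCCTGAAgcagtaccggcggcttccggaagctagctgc
Mt2: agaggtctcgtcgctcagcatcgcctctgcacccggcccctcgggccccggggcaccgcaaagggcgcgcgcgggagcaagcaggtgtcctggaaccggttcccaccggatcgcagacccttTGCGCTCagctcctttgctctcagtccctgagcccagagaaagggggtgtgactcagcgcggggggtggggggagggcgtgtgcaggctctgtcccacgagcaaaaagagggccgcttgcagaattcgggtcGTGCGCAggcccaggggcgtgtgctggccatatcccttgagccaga
Mt1: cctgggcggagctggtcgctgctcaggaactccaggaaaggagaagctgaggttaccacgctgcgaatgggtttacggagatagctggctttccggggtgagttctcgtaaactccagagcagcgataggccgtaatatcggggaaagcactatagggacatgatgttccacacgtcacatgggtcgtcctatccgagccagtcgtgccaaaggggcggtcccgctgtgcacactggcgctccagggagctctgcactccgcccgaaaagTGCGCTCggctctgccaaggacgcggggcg
Irs2: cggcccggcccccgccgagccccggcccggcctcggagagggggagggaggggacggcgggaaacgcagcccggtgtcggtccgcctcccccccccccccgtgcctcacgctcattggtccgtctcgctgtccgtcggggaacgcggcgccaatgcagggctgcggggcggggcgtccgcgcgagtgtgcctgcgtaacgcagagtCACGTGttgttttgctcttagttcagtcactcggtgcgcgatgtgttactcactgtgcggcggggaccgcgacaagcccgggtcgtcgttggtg
Gadd45g: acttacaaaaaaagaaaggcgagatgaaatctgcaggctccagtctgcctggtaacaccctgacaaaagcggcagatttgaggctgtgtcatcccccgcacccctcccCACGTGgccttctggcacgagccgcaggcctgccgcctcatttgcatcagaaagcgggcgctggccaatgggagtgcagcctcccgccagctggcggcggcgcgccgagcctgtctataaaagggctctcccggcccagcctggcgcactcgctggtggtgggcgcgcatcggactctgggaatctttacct

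Of the 71 firm genes named by rule, 49 stayed firm under all 13 alternatives of scaling, read minimum, multi-mapped reads, transcript, a 1.5-fold limit, definition of the parts and GC and length trend. A 3-fold limit, a minimum of 300 reads, a split into 3 and the exclusion of shared reads, which are stricter or judge fewer genes, are not among the 13, a set put together after the data were seen. Among the 13, a minimum of 30 reads, no minimum and a 1.5-fold limit cannot lose a firm gene. TMM on CT22 and CT40 alone left their ratios unchanged. The 49 include Usp2, Cish, Tfrc, Per2, Thrsp, Angptl8, Rcan1 and the Saa genes on the CT22 side, and Depp1, Egr1, Npas2, Mt1, Mt2, Irs2, Nr1d1, Bcl6, Acacb and Gpam on the CT40 side. With the outer parts of a split into 3, Cish, Rcan1, Saa4, Depp1, Egr1 and Irs2 were not firm. Of all firm genes, 80 of 149 and 125 of 254 stayed firm with that split. The other 22 of the 71 were lost under some of the 13. With the GC and length trend removed 14 were lost, which besides those said above were Sult2a1, Ptp4a1, Ugt2b38, Rpl10a and Rpl35. With the implied denominators 7 were lost, Chordc1, Ugt2b38, Rpl10a and Rpl35 among them, and with total gene reads Mvk and Elovl3. Of the firm genes named outside the rule, Acly, Hsp90aa1, Rpl22, Rps25 and Reln were lost with the trend removed, and Dnajb1, Hsp90aa1, Rpl22 and Rps25 with the implied denominators. Hspb1 and Sult2a1 missed the read minimum when only CT22 and CT40 were averaged. Leaving out a library cannot be tried, since each time has 1.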

How the data were processed

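Liver polyA RNA was sequenced in 1 library per time, each pooled from 3 animals, per the labels. Per the submitters' processing notes coordinates are of mm9; how reads were counted, and with which version of the aligner, is not given in the sources used here. For every transcript, exon and intron the authors deposited a lower and an upper value whose unit is not stated. These behaved as RPKM: times length, 99.67 to 99.74% of lower transcript values came to whole reads for 1 step in each library (tolerance 0.05 read plus rounding). They were turned into reads on that basis, with the lower value taken as unique reads and the upper as unique plus multi-mapped reads, an inference from the values. Junction files hold deposited counts of reads, found with RUM per the file headers. The protocol does not mark strand, so overlapping genes cannot be told apart. Exon reads count a fragment in each exon it touches.

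Of 115699 transcripts, 26046 got a symbol from RefSeq, 53799 from Vega alone, and 35854 were left out, among them identifiers with several loci. TMM came from edgeR 4.0.16 over all 4 libraries; DESeq2 1.42.0 size factors were an alternative. No count model was fitted, since 1 library per time leaves no residual. Counts under 3 were set to 3 in ratios. Exons were placed whole on the side of the midpoint that held their centre. The ratio step was tested on simulated data.

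The comparison, 37 gene lists (28 pathways, 9 cell types), motifs and the naming rule were chosen with earlier results of these data known. The rule names Clock, measured core clock genes, the 15 largest firm genes each way, and per list up to 4 firm members, or 2 members where none is firm. Genes outside it are said to be chosen after their values were seen; Myc, Hba-a1, Reln and the genes nearest the 2-fold limit are of this kind. R 4.3.3, Python 3.11.15, numpy 2.4.6, scipy 1.17.1, pandas 2.3.3 and matplotlib 3.10.9 were used. Some genes that the rule names are not reported here.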

Additional observations from a re-analysis of the deposited data

Results flagged for a closer look

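Reads of the mitochondrial genome, which enter no comparison here, stood above the limit that a count of 0 allows in both libraries. For 100 gene reads there were 17.5 at CT22 and 6.26 at CT40, with CT28 at 9.84 and CT34 at 6.51 between them.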

How the results depend on the processing

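With the denominators that the authors' values imply, firm genes were 89 at CT22 and 453 at CT40, and 2-fold genes 168 and 786. A minimum mean of 30 reads gave 239 firm and 513 2-fold genes at CT22, 300 reads gave 82 and 160, and no minimum gave 344 and 395 firm and 1163 and 957 2-fold genes. A 1.5-fold limit gave 571 and 938 firm and 1172 and 1571 in the whole transcript, and a 3-fold limit 27 and 42, and 54 and 72. With the GC and length trend removed, 73 and 147 were firm and 167 and 275 were 2-fold apart. The outer parts of a split into 3 in place of 2 gave 86 and 128 firm. All other counts lay within 1.5 times the reported ones, total gene reads (197 and 181) included. Without shared reads or overlaps, an alternative chosen after seeing the data, 107 and 236 were firm. The cause of these changes was not tested, other than that stricter limits leave fewer genes. Of the genes named by rule that were at least 2-fold apart, Cox6c was reversed, with a log2 ratio of -0.74 in its 3′ part. Among those less than 2-fold apart, which are not counted as reversed, the sign turned for Nr1d2, Rora, Tef and Hlf in 1 part of the transcript, for Rora, Tef, Hlf and Bhlhe40 in junction reads, for Rora with the implied denominators, and for Clock, which lay near 0. Of 805 alternative values of named genes 505 lay within the counting interval, 299 outside it and 1 was reversed by that count; of 165 values of list medians 108 lay within 0.1. No paired analysis was possible because each time has 1 library.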

Other observations

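Long noncoding RNAs of the nucleus differed without a firm call, since they have a single exon. Neat1, the scaffold of paraspeckles, read 1021 at CT22, 2213 and 2058 at CT28 and CT34, and 3083 at CT40 and was 3.02-fold (95% counting interval 2.81 to 3.25) higher at CT40. Malat1, a speckle RNA, read 29114 at CT22, 20379 and 17287 at CT28 and CT34, and 16605 at CT40 and was 1.75-fold (95% counting interval 1.72 to 1.79) higher at CT22. Malat1 was lower at each step, and for Neat1 CT28 and CT34 lay between CT22 and CT40. Both were judged in 1 part of the transcript only, where the coverage of the libraries also differs, and its part in them was not tested.

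In 9 firm genes, chosen after their values were seen, intron reads were at least 2-fold apart in the direction opposite to exons. Inmt, a methyltransferase, read 14216 at CT22 and 5754 at CT40, while its scaled intron reads were 532 and 1082. On the CT40 side these were A1bg, Acly, Cyp26a1, Dag1, Igf2r, Nbas, Ptch1 and Wdr7, 8 of the 248 with enough intron reads. Scaled intron reads of Acly were 1471 at CT22 and 688 at CT40, beside exon reads of 3528 and 8857. Cyp26a1, which degrades retinoic acid, had 66.3 and 24 intron reads beside 181 and 491 in exons. Of all 8790 genes with enough intron reads, 22% had introns at least 2-fold higher at CT22 and 1.70% at CT40. Neither the 8 of 248 nor Inmt, 1 of 136 on the CT22 side, exceeds the share over all genes.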
